A study of Drosophila melanogaster with 9 samples.

Results

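The comparison set brains of wild-type flies exposed orally to the Gram-negative bacterium Ecc15 against brains of unexposed wild-type flies. It covers the genes of the wild-type table whose normalized count averaged at least 1 over 6 libraries, which were 13085 of the 17562 gene IDs. Of the gene IDs left out, 2498 had a value of 0 in all 6 libraries. At the limit itself, 212 genes had a mean of 1, and 256 genes just outside it had a mean of 0.833. Polyadenylated RNA was sequenced from pools of 20 dissected brains, taken from *Drosophila melanogaster* females that were 4 to 6 days old. Both groups had 3 libraries, and they carry the labels "Wild Type" with the control condition (WT control) and "Wild Type" with the infected condition (WT Ecc15). Exposure lasted 16 h per the labels' protocols, whereas the design text of the series names a 24-hour diet of bacteria or, for controls, sucrose. The wild-type strain is not named in the labels. Another group of 3 libraries, exposed PGRP-LB mutants, enters only as values set side by side.

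Peptidoglycan of Gram-negative bacteria is sensed in flies by peptidoglycan recognition proteins (PGRPs) such as PGRP-LC and PGRP-LE, which start the Imd signalling pathway. The pathway ends in cleavage of Rel, a transcription factor of the NF-κB family, which turns on the genes of antimicrobial peptides, small secreted molecules that kill microbes. Amidases such as PGRP-LB and PGRP-SC2, which cut peptidoglycan, and the inhibitors pirk and PGRP-LF hold the pathway down. The fat body and the gut are its best-known sites, and pathway components also act in some neurons. The series asks whether peptidoglycan from bacteria reaches the brain and changes transcription there.

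Neuronal and glial genes were expressed in every library, and so were genes of other tissues, such as the photoreceptor gene ninaE at 14547 to 146610 normalized counts. The neuronal marker nSyb, a synaptic vesicle protein, stood at 50562, 56606 and 56360 normalized counts in WT control libraries and at 56680, 54343 and 55166 in WT Ecc15. The gene of the glial transcription factor repo stood between 3891 and 5041 in all 6 libraries. All 7 defining neuronal markers and all 6 defining glial markers were present in every library. None was called different between the groups, where 0.122% of all genes tested were called. The normalized counts of a library summed to 25.6 to 26.8 M (M, mega). Counted reads were estimated from which whole numbers occur among the low values. They were 19.4 M in WT Ecc15 S2 and 25.9 to 30.7 M in the others, so WT Ecc15 S2 has the coarsest low values. In simulated data the estimate erred by up to 14.5% at scaling factors of 0.9 or more, as in all libraries but WT Ecc15 S2. Some libraries stood apart in genes of other tissues: gut enzymes and the hormone gene Akh were high in WT Ecc15 S1 and S2, antennal genes were high in WT control S1 and S3 and in WT Ecc15 S3, and photoreceptor genes were low in WT control S3. Their values stand after the results, with the main results without these libraries.

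Exposed wild-type brains held more RNA of 16 genes, and no gene was called lower (limma, Benjamini-Hochberg adjusted p under 0.05). These 16 genes are 0.122% of the genes tested, and the share called lower was 0%. With an unadjusted p under 0.05 there were 621 higher genes (4.75%) and 332 lower ones (2.54%). In pooled whole brains, more cells of a type and more RNA per cell cannot be told apart. Of the 16 genes, 7 encode antimicrobial peptides, 2 are peptidoglycan recognition genes, 1 is the pathway's own transcription factor, and 6 stand outside these groups. The median log2 change over all genes tested was -0.000664. The authors' deposited table has 125 genes higher and 17 lower at its own adjusted p under 0.05, and all 16 are among its calls. The calls depended on the libraries and on the variance model: no gene was called without WT control S1, WT Ecc15 S1 or WT Ecc15 S2, 1 gene was called without WT control S2, and no gene was called in limma without the mean-variance trend.

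**Figure D1:**
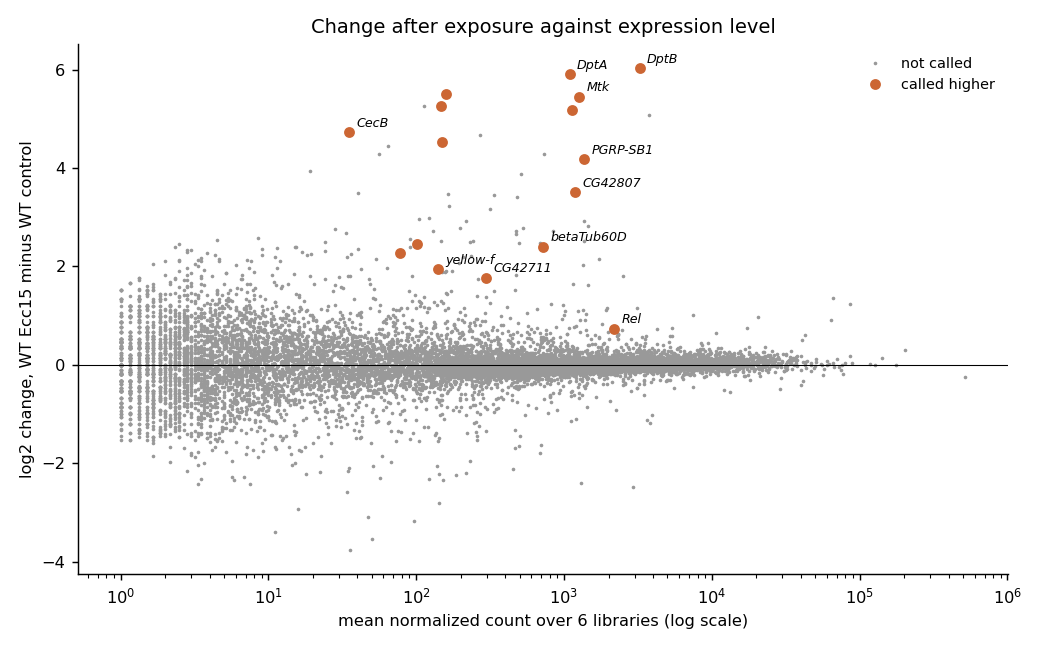
Each point is 1 of the 13085 genes tested, with the mean normalized count over 6 libraries on a log axis and the log2 change of WT Ecc15 minus WT control on the vertical axis. Orange points are the 16 genes called higher, which lie between a log2 change of 0.73 for Rel and 6.03 for DptB.

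The diptericins, antibacterial peptides that serve as the standard readout of the Imd pathway, had the largest changes. Diptericin A (DptA, chromosome 2R, 18865765 to 18866260, plus strand, BDGP6 annotation) stood at 27, 40 and 26 normalized counts in WT control libraries and at 3150, 2425 and 874 in WT Ecc15. Its neighbour DptB, 1130 bases away, stood at 60, 69 and 143 against 6700, 9866 and 2611. In both genes the lowest exposed library, WT Ecc15 S3, was above the highest control library. The log2 changes were 5.91 (SE 0.45, limma adjusted p = 0.00795) for DptA and 6.03 (SE 0.51, limma adjusted p = 0.00916) for DptB.

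Drosocin (Dro), a proline-rich antibacterial peptide, stood at 42, 67 and 57 normalized counts in WT control libraries and at 2765, 2843 and 1013 in WT Ecc15 (log2 change 5.17, SE 0.40, limma adjusted p = 0.00795). Metchnikowin (Mtk), a peptide with antifungal and antibacterial activity, stood at 34, 92 and 49 against 1802, 3343 and 2269 (log2 change 5.45, SE 0.37, limma adjusted p = 0.00795). Among the 15 measured genes of the antimicrobial peptide list, Mtk was the 1 in which WT Ecc15 S3 was not the lowest exposed library. Mtk lies on the same strand as the overlapping gene Stacl, so its reads may be shared with it.

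The cecropins are helical peptides that break bacterial membranes, and their genes lie in 1 cluster on chromosome 3R, where CecA1 and CecB are 2041 bases apart and CecB and CecC 2686. CecA1 stood at 4, 3 and 10 normalized counts in WT control libraries and at 432, 384 and 125 in WT Ecc15. CecC stood at 6, 4 and 9 against 284, 408 and 165, and CecB at 1, 1 and 2 against 82, 100 and 26. The 3 genes rose together from values of 10 or less in every control library. Their log2 changes were 5.51 (SE 0.58), 5.25 (SE 0.42) and 4.73 (SE 0.57), with limma adjusted p = 0.0217, 0.00795 and 0.0442. CecB lost its call in 12 of 16 alternative settings. CecA2, a near-identical relative of CecA1 whose reads the counting could split, stood at 2, 1 and 1 against 51, 41 and 19 and was not called (limma adjusted p = 0.0533).

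All 15 measured antimicrobial peptide genes were higher in every WT Ecc15 library than in every WT control library, where 6.93% of all genes tested were higher without overlap. Their median log2 change was 5.08, with a range from 1.56 for edin, named after its value was seen, to 6.03. The attacins are glycine-rich antibacterial proteins. Attacin C (AttC) stood at 181, 146 and 163 normalized counts in WT control libraries and at 9144, 11069 and 1692 in WT Ecc15, and it was not called (log2 change 5.08, SE 0.64, limma adjusted p = 0.0542). Without WT Ecc15 S3 it was called, as were Def and AttB. Defensin (Def) stood at 11, 12 and 28 against 748, 671 and 147 (limma adjusted p = 0.0683), and AttB at 34, 36 and 107 against 2145, 1828 and 259. AttB and AttA are near-identical, and AttA stood at 11, 25 and 28 against 247, 198 and 37. AttD stood at 2, 2 and 12 against 220, 355 and 82 (limma adjusted p = 0.0683). Drosomycin (Drs), an antifungal peptide best known as a Toll target, stood at 167, 274 and 504 against 2972, 3154 and 1096 (limma adjusted p = 0.145).

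**Figure D2:**
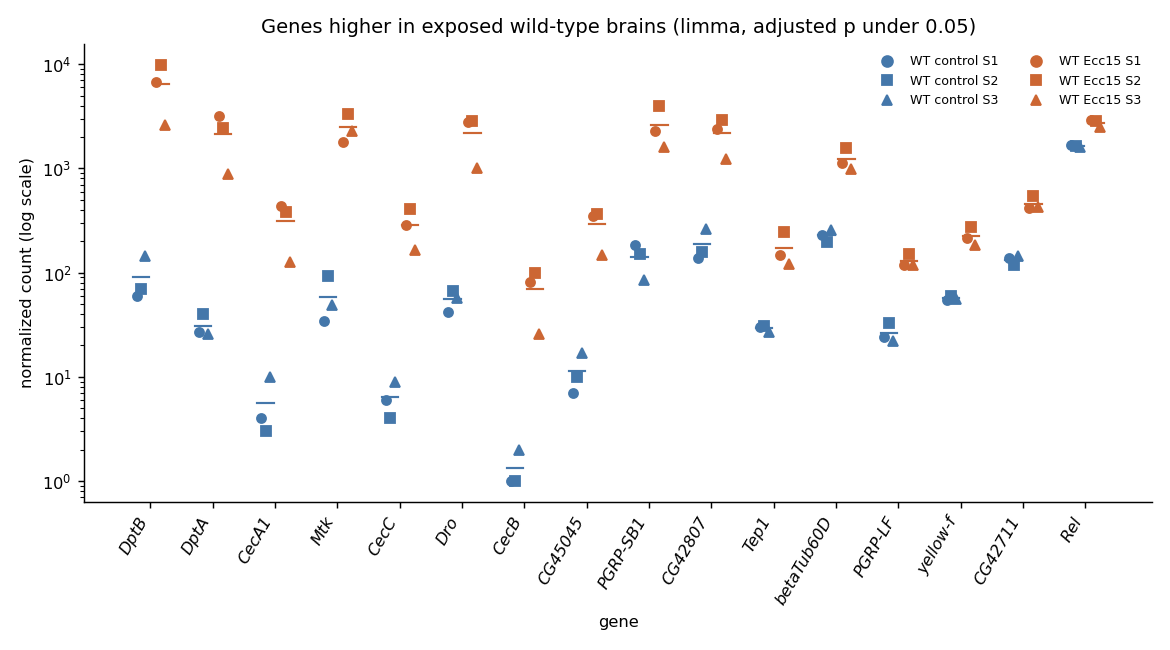
Normalized counts on a log axis of the 16 genes called higher, ordered by log2 change, in each WT control library (blue) and each WT Ecc15 library (orange), with horizontal lines at the group means. In every gene the 3 exposed libraries lie above the 3 control libraries, and WT Ecc15 S3 (orange triangles) is the lowest exposed library in 14 of the 16.

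The size of the response differed among the exposed libraries. WT Ecc15 S3 was the lowest of its group in 14 of the 16 called genes and in 14 of the 15 peptide genes, and WT Ecc15 S2 was the highest in 13 of the 16. Against the mean of the controls, the median log2 change over the 15 peptide genes was 5.37 in WT Ecc15 S1, 5.68 in WT Ecc15 S2 and 3.56 in WT Ecc15 S3. In each of these libraries all 15 peptide genes and all 16 called genes were above every control library. The summed normalized count of the peptide genes was 587, 778 and 1143 in WT control libraries and 30773, 36705 and 10422 in WT Ecc15.

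An amidase and an inhibitor of the peptidoglycan recognition family rose. PGRP-SB1, a secreted amidase, stood at 185, 151 and 85 normalized counts in WT control libraries and at 2276, 3949 and 1593 in WT Ecc15 (log2 change 4.18, SE 0.38, limma adjusted p = 0.0132). PGRP-LF, which lacks the ability to bind peptidoglycan and blocks PGRP-LC, stood at 24, 33 and 22 against 119, 152 and 118 (log2 change 2.27, SE 0.25, limma adjusted p = 0.0274). PGRP-LF lost its call in each of the 6 fits that left out 1 library. These were 2 of 12 measured recognition genes, where 0.122% of all genes tested were called. Of the 12, 6 were higher without overlap, beside 6.93% of all genes tested, with a median log2 change of 1.28.

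PGRP-SD, a secreted protein that brings peptidoglycan to the cell surface, stood at 274, 216 and 151 normalized counts against 1860, 1750 and 790 (log2 change 2.72, SE 0.35, limma adjusted p = 0.0543). The amidase PGRP-SC2 stood at 6, 1 and 7 against 108, 169 and 43 (limma adjusted p = 0.123). PGRP-LB, the amidase removed in the mutant flies of the series, stood at 167, 122 and 154 against 335, 261 and 224 (limma adjusted p = 0.307). The groups did not overlap in these 3 genes, and none was called. The receptors themselves, named after their values were seen, had overlapping groups. PGRP-LC stood at 566, 658 and 418 against 573, 556 and 534, and PGRP-LE at 545, 646 and 608 against 564, 575 and 548.

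Within the Imd pathway the transcription factor rose and most other components had overlapping groups. Rel (chromosome 3R, 9044183 to 9047977, minus strand) stood at 1680, 1628 and 1613 normalized counts in WT control libraries and at 2886, 2824 and 2494 in WT Ecc15. Both groups were tight, and the log2 change was 0.73 (SE 0.07, limma adjusted p = 0.0143). Nmdmc overlaps Rel on the same strand. The inhibitor pirk stood at 113, 54 and 83 against 323, 225 and 149 (log2 change 1.46, SE 0.35, limma adjusted p = 0.384). Of 20 measured Imd genes, Rel was the one called, where 0.122% of all genes tested were called. Of the 20, 3 were higher and 2 lower without overlap, beside 6.93% and 5.67% of all genes tested, and the median log2 change was 0.02. The adaptor Fadd stood at 199, 221 and 210 against 188, 160 and 177, and the ubiquitin ligase Diap2 at 5527, 5608 and 5903 against 5472, 5411 and 5203, neither of them called.

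The 6 called genes outside the peptide, recognition and Imd lists did not all have a known part in immunity. Tep1, a complement-like thioester protein, stood at 30, 31 and 27 normalized counts in WT control libraries and at 149, 245 and 122 in WT Ecc15 (log2 change 2.45, SE 0.29, limma adjusted p = 0.0401). Its call was lost in 13 of 16 alternative settings. The uncharacterized gene CG45045 stood at 7, 10 and 17 against 353, 367 and 149 (log2 change 4.53, SE 0.45, limma adjusted p = 0.0178), and CG14322 overlaps it on the same strand. CG42807, also uncharacterized, stood at 137, 158 and 264 against 2387, 2942 and 1223 (log2 change 3.51, SE 0.36, limma adjusted p = 0.0195).

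The tubulin gene betaTub60D (chromosome 2R, 24305881 to 24313099, plus strand), encodes a β-tubulin isotype known from developing muscle and other differentiating tissues. It stood at 230, 198 and 255 normalized counts in WT control libraries and at 1119, 1563 and 992 in WT Ecc15 (log2 change 2.40, SE 0.18, limma adjusted p = 0.00795). It was the 1 called gene among 17 measured tubulin and actin genes, where 0.122% of all genes tested were called. The median log2 change of the 17 was 0.01. Act42A, a cytoplasmic actin, stood at 1467, 1299 and 1198 against 1537, 2082 and 1742, and betaTub85D, the testis isotype, at 58, 60 and 53 against 88, 85 and 87. Both were higher without overlap and were not called (limma adjusted p = 0.504 and 0.540).

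The gene yellow-f, which encodes a dopachrome-conversion enzyme of the melanin pathway, stood at 55, 60 and 56 normalized counts in WT control libraries and at 216, 275 and 183 in WT Ecc15 (log2 change 1.94, SE 0.19, limma adjusted p = 0.0178). The other 11 measured genes of the yellow family had overlapping groups, where 6.93% of all genes tested were higher and 5.67% lower without overlap. Among the 11 was the closest relative of yellow-f, yellow-f2, at 213, 310 and 134 against 282, 221 and 256. CG42711 (chromosome 2L, 13930322 to 13931362, minus strand), an uncharacterized gene, stood at 137, 118 and 143 against 413, 538 and 424 (log2 change 1.78, SE 0.15, limma adjusted p = 0.00887). Ance-3 overlaps CG42711 on the opposite strand, and whether reads were counted by strand is not given in the sources used here.

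Set beside the exposed mutants, whose table has the same controls and was scaled separately, the called genes lay at different levels. DptA stood at 73866, 134159 and 59179 normalized counts in the mutant libraries, and Rel at 11785, 15242 and 11076, both above every WT Ecc15 value. The tubulin gene betaTub60D stood at 1337, 1766 and 1275, against 1119, 1563 and 992 in WT Ecc15. Tep1 stood at 91, 284 and 193, a range that spans the WT Ecc15 values. CG42711 stood at 67, 97 and 56, below the controls, which stood between 118 and 143 in the wild-type table. No test was made across the tables, and no unexposed mutant library was analysed here.

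**Figure D3:**
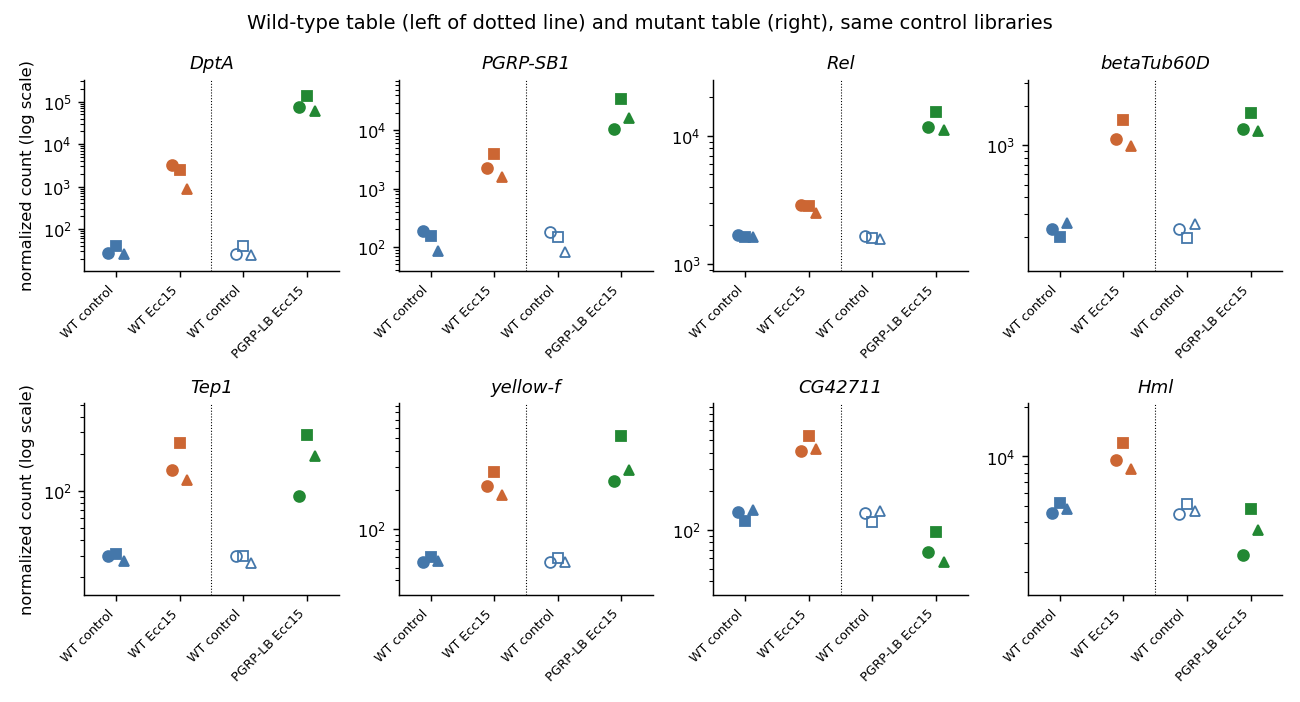
Normalized counts on log axes of 8 genes in each library. Left of the dotted line are WT control (blue) and WT Ecc15 (orange) in the wild-type table, and right of it are the same controls (open blue) and exposed PGRP-LB mutants (green) in the mutant table. CG42711 and Hml are above the controls in WT Ecc15, and in the mutant table the 3 exposed libraries of CG42711 lie below the controls.

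Toll pathway genes, which answer mainly to fungi and Gram-positive bacteria, were not called by limma. Of 19 measured Toll signalling genes 2 were higher and 1 lower without overlap, beside 6.93% and 5.67% of all genes tested. With an unadjusted p under 0.05, 3 were higher and 0 lower, beside 4.75% and 2.54%. The median log2 change was 0.10. The protease Hayan stood at 92, 82 and 39 normalized counts against 183, 165 and 118 (limma adjusted p = 0.518), and the receptor Toll (Tl) at 4542, 4162 and 4212 against 4864, 4645 and 4777 (limma adjusted p = 0.637). Of 18 Bomanin and other Toll effector genes, 17 had a log2 change above 0, where 6437 of 13085 genes tested did. Of the 18, 5 were higher without overlap, beside 6.93% of all genes tested. With an unadjusted p under 0.05, 4 were higher, beside 4.75%, and the median of the effectors was 0.54. BomBc3 stood at 155, 149 and 124 against 276, 182 and 249 (limma adjusted p = 0.454). Without WT control S1, WT control S3 and WT Ecc15 S3 the median of these effectors was -0.00.

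Cytokines of the JAK-STAT pathway and the Turandot stress peptides, some of which it induces, had larger but uneven differences. The cytokine upd3 stood at 0, 1 and 0 normalized counts in WT control libraries and at 7, 5 and 4 in WT Ecc15, and upd2 at 3, 0 and 5 against 10, 11 and 14. These values rest on few reads, and neither gene was called (limma adjusted p = 0.328 and 0.592). TotM stood at 64, 116 and 16 against 699, 809 and 297 (log2 change 3.45, SE 0.70, limma adjusted p = 0.248), and TotA at 145, 300 and 42 against 1501, 672 and 319 (limma adjusted p = 0.545). Of 15 genes in the list 5 were higher and 1 lower without overlap, beside 6.93% and 5.67% of all genes tested. At an unadjusted p under 0.05, 6 were higher and 1 lower, beside 4.75% and 2.54% of all genes tested. The median log2 change of the list was 0.16. Listericin, an antibacterial peptide gene reported to respond to JAK-STAT, stood at 35, 132 and 34 against 1621, 389 and 853 (limma adjusted p = 0.139).

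Other genes with a large difference and no call included Gnmt, a methyltransferase that consumes S-adenosylmethionine, at 3, 12 and 1 normalized counts against 192, 135 and 41 (limma adjusted p = 0.176). CG43236, which the annotation names Mtkl, stood at 28, 12 and 48 against 289, 373 and 229 (log2 change 3.47, SE 0.47, limma adjusted p = 0.0604). The storage protein gene Lsp1beta stood at 21, 27 and 7 against 206, 331 and 33 (limma adjusted p = 0.518). All of these were higher in every exposed library.

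Iron-handling genes held 3 genes that were higher without overlap among 10 measured, beside 6.93% of all genes tested. All 3 had an unadjusted p under 0.05, beside 4.75% of all genes tested, and none was called by limma. Transferrin 1 (Tsf1), an iron-binding protein of the haemolymph, stood at 34551, 36305 and 30061 normalized counts against 48083, 59996 and 46715 (log2 change 0.61, SE 0.12, limma adjusted p = 0.226). The metal transporter gene Mvl stood at 2336, 2336 and 2413 against 3213, 3221 and 2736 (limma adjusted p = 0.245), and Zip99C at 1724, 1751 and 1628 against 1993, 2436 and 2190 (limma adjusted p = 0.305). The ferritin heavy chain Fer1HCH, which stores iron, stood at 26390, 26756 and 22998 against 23233, 23193 and 22293, with overlapping groups. The median of the list was -0.03.

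Among 21 genes of the endoplasmic reticulum and its stress response, Atf6, a membrane-bound transcription factor of the unfolded protein response, had the smallest p. It stood at 2767, 3012 and 3142 normalized counts against 4347, 3817 and 4030 (log2 change 0.45, SE 0.07), with no call (limma adjusted p = 0.12). The translocon subunit Sec61alpha stood at 3893, 3557 and 3685 against 4348, 4833 and 3946 (limma adjusted p = 0.625). In this list 3 genes were higher and 3 lower without overlap, beside 6.93% and 5.67% of all genes tested. With an unadjusted p under 0.05, 3 were higher and 0 lower, beside 4.75% and 2.54%. The median of the list was 0.06. Heat shock chaperone genes had 14 of 17 log2 changes below 0, where 6648 of 13085 genes tested were below 0. Their median was -0.23, with a range over the alternatives from -0.44 to -0.02, the latter without WT control S2. Without overlap 2 were lower and 0 higher, beside 5.67% and 6.93% of all genes tested. With an unadjusted p under 0.05, 1 was lower and 0 higher, beside 2.54% and 4.75%, and limma called none. Hsp67Bc stood at 667, 741 and 944 against 579, 553 and 661 (limma adjusted p = 0.637).

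Cytochrome P450 genes, oxidases of hormone and xenobiotic metabolism, had 8 of 74 members lower and 2 higher without overlap, beside 5.67% and 6.93% of all genes tested. At an unadjusted p under 0.05 there were 7 lower and 2 higher genes, beside 2.54% and 4.75% of all genes tested, and limma called none. The median log2 change of the list was -0.02, with a range from -0.21 to 0.09 over the alternatives. Cyp12a4 stood at 2793, 3256 and 2858 normalized counts against 2507, 2397 and 2459 (limma adjusted p = 0.433), and Cyp9f2 at 6881, 7251 and 6430 against 5574, 5601 and 6088 (limma adjusted p = 0.441). Of 36 glutathione transferase genes 2 were higher without overlap, against 6.93% of all genes tested, and GstD3 stood at 916, 987 and 994 against 1057, 1213 and 1199 (limma adjusted p = 0.530).

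No gene of the neural lists was called by limma. Of 34 genes in the neuropeptide list 1 was higher and 2 lower without overlap, beside 6.93% and 5.67% of all genes tested. At an unadjusted p under 0.05, 3 were higher and 2 lower, beside 4.75% and 2.54% of all genes tested. The list had a median log2 change of 0.12 and a range of -1.79 to 0.74. It includes CAP, which is not a neuropeptide gene and was among the lower ones in both counts (log2 change -0.31). Of 37 neuropeptide receptor genes 28 had a log2 change above 0, where 6437 of 13085 genes tested did. Their median was 0.11, with a range of -0.10 to 0.28. Of the 37, 2 were higher without overlap (2 at an unadjusted p under 0.05), where all genes tested had shares of 6.93% and 4.75%. Lkr, the leucokinin receptor, stood at 517, 497 and 509 normalized counts against 624, 581 and 541 (limma adjusted p = 0.677). The stress hormone gene Dh44 stood at 11411, 8956 and 9033 against 12052, 12519 and 12455 (log2 change 0.34, SE 0.10, limma adjusted p = 0.494). The octopamine receptor gene Octbeta1R stood at 4369, 4828 and 5247 against 6019, 5478 and 5834 (limma adjusted p = 0.513). VGlut and VAChT, the vesicular transporters of glutamate and acetylcholine, had log2 changes of 0.17 (SE 0.05) and 0.13 (SE 0.05), with limma adjusted p = 0.552 and 0.658. Tdc2, which makes the precursor of octopamine, stood at 1027, 914 and 994 against 939, 1085 and 981, with overlapping groups.

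No gene was called lower. Among the 12 lower genes named by rule, CG33502 stood at 104, 478 and 119 normalized counts in WT control libraries and at 36, 41 and 52 in WT Ecc15 (log2 change -2.07, SE 0.55, limma adjusted p = 0.453). CG34456 stood at 95, 106 and 101 against 10, 20 and 75, with WT Ecc15 S3 close to the controls (limma adjusted p = 0.583). The channel gene ppk5 of the pickpocket family stood at 42, 55 and 82 against 16, 27 and 25 (limma adjusted p = 0.450), and the microtubule crosslinker gene feo at 31, 31 and 46 against 10, 14 and 20 (limma adjusted p = 0.509). CG4465 stood at 6, 13 and 46 against 1, 0 and 1, a handful of reads in the exposed group. The other 7 were lncRNA:CR45457, CG5235, CG17005, CG13280, bap, lncRNA:CR44899 and the maltase gene Mal-B1, with log2 changes between -2.09 and -1.14.

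**Figure D4:**
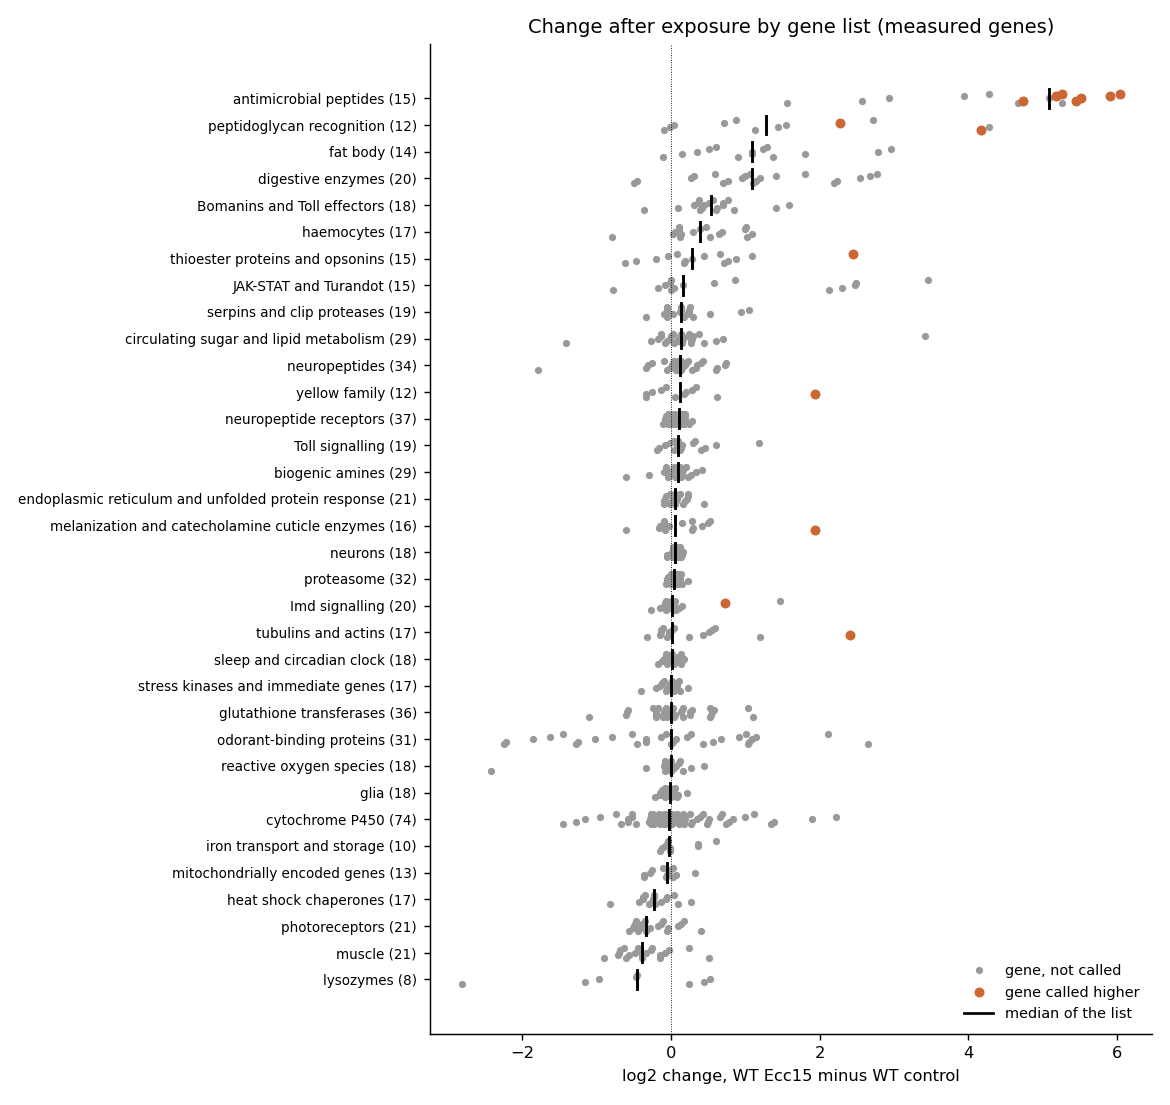
Log2 change of WT Ecc15 minus WT control for each measured gene of 34 gene lists, with the number of measured genes in parentheses, list medians as black bars and called genes in orange. Antimicrobial peptides stand at a median of 5.08 and peptidoglycan recognition genes at 1.28, while neurons, glia and Imd signalling lie near 0.

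Genes of other tissues differed between libraries, and brains dissected from the head can carry pieces of these tissues. Haemocytes are the blood cells of the fly. Of their 8 defining markers 5 were higher without overlap, beside 6.93% of all genes tested, with a median log2 change of 0.84. In the wider list of 17 haemocyte genes 7 were higher without overlap, with a median of 0.40. Hemolectin (Hml), a clotting factor of haemocytes, stood at 4533, 5237 and 4801 normalized counts in WT control libraries and at 9481, 12077 and 8363 in WT Ecc15 (log2 change 1.02, SE 0.13, limma adjusted p = 0.0542). The phagocytic receptor gene NimC1 stood at 1102, 700 and 615 against 1400, 2112 and 1549 (limma adjusted p = 0.296). Together the 8 markers held 0.0386% to 0.0436% of the normalized counts in WT control libraries and 0.0614% to 0.0878% in WT Ecc15, and the prophenoloxidase genes PPO1 and PPO2 had overlapping groups. In the mutant libraries Hml stood at 2528, 4814 and 3617.

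The fat body is the main source of peptides in the haemolymph. Of its 7 defining markers 5 were higher without overlap, beside 6.93% of all genes tested, with a median log2 change of 1.24. The yolk protein gene Yp3 stood at 59409, 40160 and 18411 normalized counts in WT control libraries and at 73026, 112188 and 92042 in WT Ecc15 (limma adjusted p = 0.509). The storage protein gene Lsp2 stood at 25, 57 and 33 against 366, 627 and 71 (limma adjusted p = 0.469). Together the 7 markers held 0.341% to 0.937% of the normalized counts in WT control libraries and 1.02% to 1.47% in WT Ecc15, and none was at 0. Fbp1 and apolpp had overlapping groups. The part of fat body and haemocyte RNA in the higher peptide genes was not tested.

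Gut genes and Akh, the hormone of the corpora cardiaca, separated the exposed libraries from each other. The summed count of 31 digestive enzyme genes was 358, 196 and 171 in WT control, 823 and 760 in WT Ecc15 S1 and S2, and 172 in WT Ecc15 S3. Akh, named after its values were seen, stood at 44, 24 and 13 in WT control libraries and at 829, 1947 and 11 in WT Ecc15. Both values of WT Ecc15 S3 were close to those of the controls. The same library held 874 normalized counts of DptA, 2611 of DptB and 2269 of Mtk, and the highest control value of these genes was 143. Its 7 defining fat body markers held 1.36% of the normalized counts, against 0.341% to 0.937% in WT control libraries. Nearly all of these counts in WT Ecc15 S3 were from Yp1, Yp2, Yp3 and apolpp, at 86299, 124661, 92042 and 57235. Lsp2 stood at 71 in this library, against 25 to 57 in WT control, and Fbp1 at 19, against 15 to 20. With WT Ecc15 S3 as the lone exposed library, assumed to vary like the controls, the log2 change of DptA was 4.80 and the median over the peptide genes 3.56, and no gene was called. The part of gut and corpora cardiaca RNA in the peptide values of the exposed libraries was not tested.

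Antennal genes followed another split of the libraries. The odorant-binding protein gene lush, named after its values were seen like the others of this paragraph, stood at 407, 10 and 150 normalized counts in WT control libraries and at 3, 5 and 281 in WT Ecc15. Obp83a stood at 1879, 30 and 752 against 17, 57 and 1435, and Os-C at 1493, 2 and 560 against 2, 30 and 870. They were high in WT control S1, WT control S3 and WT Ecc15 S3 and low in the other 3 libraries. Without these 3 libraries the log2 change of DptA was 6.08 and the median over the peptide genes 5.74, and no gene was called with 1 control library. Photoreceptor genes were low in WT control S3, where the rhodopsin gene ninaE stood at 14547, against 123174 and 146610 in the other controls and 54743, 36576 and 90306 in WT Ecc15.

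**Figure D5:**
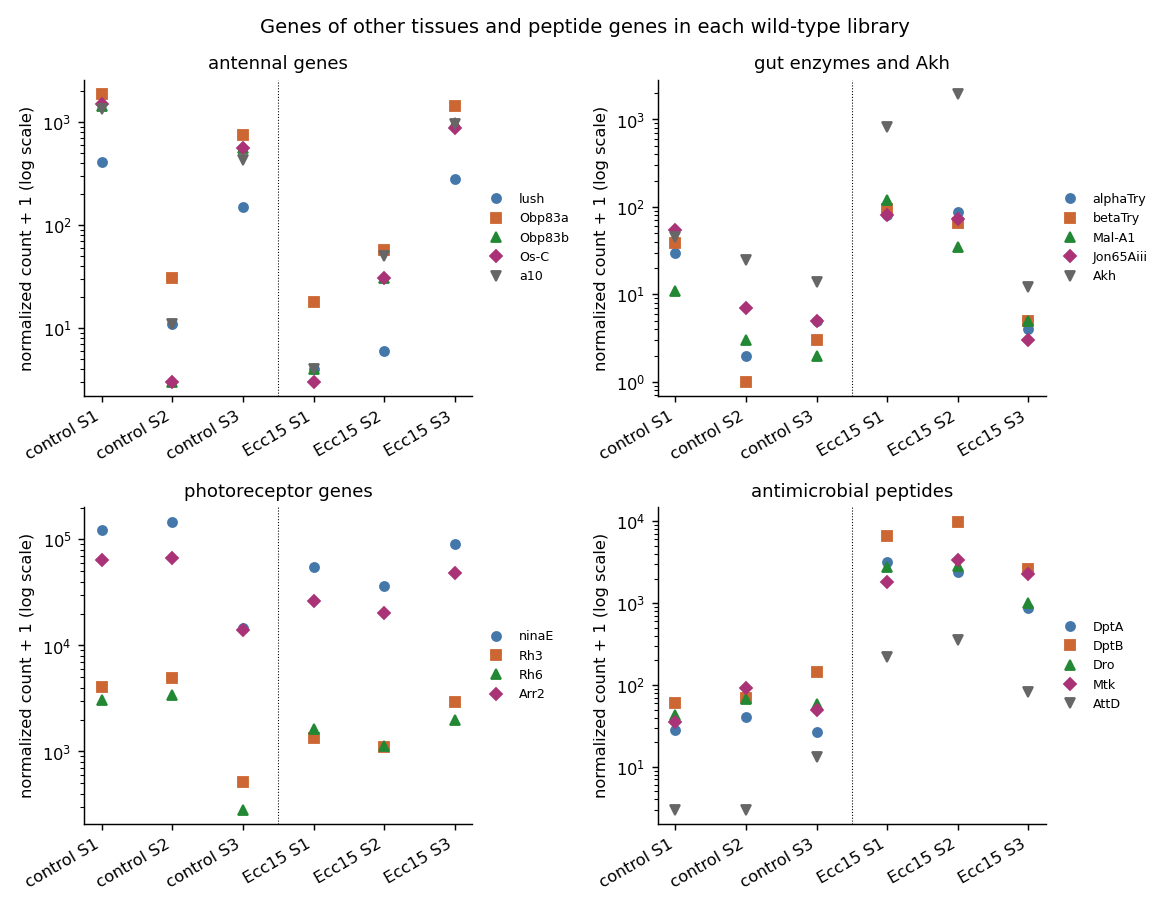
Normalized counts plus 1 on log axes in each of the 6 wild-type libraries for antennal genes, gut enzymes with Akh, photoreceptor genes and antimicrobial peptides, with a dotted line between WT control and WT Ecc15. WT Ecc15 S3 has gut enzymes and Akh at the level of the controls. DptA stands at 26 to 40 normalized counts in WT control and at 874 to 3150 in WT Ecc15.

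The control libraries varied more than the exposed ones. For the 4298 genes with a mean of 1000 or more, the median SD of log2 values was 0.10 among WT control and 0.06 among WT Ecc15 libraries, and the exposed SD was the larger in 24.1% of them. The median size of the log2 change in these genes was 0.06. Of the 16 called genes, 7 were in this range, 7 had a mean of 100 to 1000 and 2 a mean of 10 to 100.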

How the data were processed

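The deposited tables were the authors' sheets of normalized counts per gene, rounded to whole numbers and treated as a score rather than raw counts, since the same controls differ between tables by a factor particular to each library (medians 1.013, 1.017 and 1.021). The submitters' processing notes list featureCounts, HTSeq, DESeq2 and HISAT2; the build, annotation or strandedness of counting is not given in the sources used here. Per the file headers, the authors' p-values and folds stand in further deposited columns, and they were used only where named.

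Here limma 3.58.1 (limma-trend, R 4.3.3) was fitted to log2(value + 1) of the 13085 genes averaging 1 or more, two-sided, with p-values adjusted over all of them (Benjamini-Hochberg, threshold 0.05). Changes are on this scale, which understates changes of low genes. No count model was run. The smallest p of an exact permutation test with 3 libraries a group is 0.1. Each replicate is a separate pool of 20 brains. Column marks S1 to S3 could not be matched to the titles' replicate numbers. The fit was tested on simulated data.

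The 34 gene lists and the genes were chosen with earlier results of these data known. Named genes were all called genes, up to 12 further higher and 12 lower genes by log2 change (unadjusted p under 0.05, groups not overlapping, higher group averaging 20 or more), up to 4 members per list by p, and 8 fixed genes (PGRP-LB, DptA, AttA, AttD, pirk, Tdc2, Hml, Lsp2); cell type markers were a fixed list, and others are marked. Lists were described by counts and medians. Locations are from the BDGP6 annotation, which matched 17462 of 17562 gene IDs by symbol or synonym. The alternatives were other scalings, pseudocounts, filters and variance models, leaving out each library, and 2 sets of libraries left out that were chosen after seeing the data.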

Additional observations from a re-analysis of the deposited data

How the results depend on the processing

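The number of genes called higher, 16 as reported, was 0 in limma without the mean-variance trend (902 genes at an unadjusted p under 0.05) and 0 with vooma precision weights (938). It ranged from 0 to 19 when 1 library was left out, with 0 without WT control S1, WT Ecc15 S1 or WT Ecc15 S2, 1 without WT control S2, 14 without WT control S3 and 19 without WT Ecc15 S3. It was 0 without WT Ecc15 S1 and S2 (269 by unadjusted p) and 0 without WT control S1, WT control S3 and WT Ecc15 S3 (1487), both chosen after seeing the data, where a group of 1 library leaves the spread to the other group. Under quantile normalization 22 genes were called, under the other scalings, pseudocounts and filters 14 to 16, and no gene was called lower in any of the 16 alternatives. The cause of the lost calls was not tested. The 16 called genes were above 0 in all 16 alternatives, with DptA between 4.80 and 6.46. The log2 change of Tdc2, at 0.03, ranged from -0.026 to 0.078 when 1 library was left out, with -0.015 without WT control S2 and -0.026 without WT Ecc15 S2. No paired analysis was possible because the columns carry marks that could not be matched to the titles' replicate numbers. Values of few normalized counts, such as those of upd3, are limited by depth, most in WT Ecc15 S2.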

Other observations

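Some genes stood high in 1 library alone, and all of these were chosen after their values were seen. The serine protease genes CG3088 and CG8329 stood at 8024 and 8036 normalized counts in WT Ecc15 S1 and at most at 77 and 67 in the other 5 libraries. Obp56g, an odorant-binding protein gene, stood at 2810 in WT Ecc15 S1 and at most at 8 elsewhere. The lysozyme gene LysP stood at 847 in WT control S3 and at most at 4 elsewhere.

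The mitochondrial small ribosomal RNA mt:srRNA, chosen in the same way, stood at 2298, 3251 and 3305 normalized counts in WT control and at 1404, 1530 and 1679 in WT Ecc15 (log2 change -0.92, SE 0.15, limma adjusted p = 0.114). The libraries were poly(A)-selected, per the labels. Of the 13 mitochondrially encoded genes in the list, 1 was lower without overlap and none higher, beside 5.67% and 6.93% of all genes tested. Their median was -0.05.

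Of the 16 called genes, 6 lay among the 2644 genes tested on chromosome 2R, 6 among 3219 on 3R, 2 among 2332 on 2L and 2 among 2595 on 3L. Limma called 0 of 2097 genes on X and 0 of 105 on chromosome 4, beside 0.122% of all genes tested. On X, 136 genes had an unadjusted p under 0.05. Of these 79 were higher and 57 lower, where the shares of all genes tested were 4.75% and 2.54%. Of the 6 on 3R, CecA1, CecB and CecC lie in 1 cluster, and of the 6 on 2R, DptA and DptB are neighbours.

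The genes of the small chromosome 4 stood apart as a group, which was noticed after the values were seen and was not tested. Of its 105 genes tested, 85 had a log2 change above 0, where 6437 of 13085 genes tested did. With an unadjusted p under 0.05, 33 were higher and 0 lower, beside 4.75% and 2.54% of all genes tested. Without overlap 41 were higher and 3 lower, beside 6.93% and 5.67%. The median log2 change of the 105 genes was 0.15, and the medians of the larger chromosomes lay between -0.02 on X and 0.01 on 2R. Against the control mean, the median over chromosome 4 genes was -0.08, 0.01 and 0.08 in WT control S1, S2 and S3 and 0.22, 0.12 and 0.16 in WT Ecc15 S1, S2 and S3.

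Over the 8130 genes with a mean of 100 or more, the first principal component held 39.2% of the variance and the second 23.9%. WT Ecc15 S3 lay within the range of WT control on the first component, at 7.18 against 3.30 to 20.1, while WT Ecc15 S1 and S2 lay at -34.6 and -13.8. Genes with the largest weights on this component included the antennal genes Os-C, lush and Obp83a. Others were CG3088, CG8329 and Obp56g, high in WT Ecc15 S1 alone, Akh, and the peptide genes DptA, DptB and AttC.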
